A study of Mus musculus with 6 samples.

Results

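The genes described here are 34 markers of macrophages and other myeloid cells, measured in whole embryonic mouse kidneys labelled Foxd1 null and in kidneys labelled as those of wild type littermates. They were taken from a list of names, and for each name the row of the array with that 1 gene symbol and the highest mean over the pools was used. All 34 had such a row, out of 19938 genes with 1 in all. The embryos were at stage E14.5 and came from 3 litters of Foxd1+/- parents. Each pool combined 2 pairs of kidneys, every pair from another litter, and was read on its own Affymetrix gene array, with 3 pools labelled Foxd1 null (Foxd1-/-) and 3 labelled wild type. With only 3 litters, any pair of pools shared at least 1 litter, so the pools were not fully independent. The sources used here give neither the strain nor the part of Foxd1 that the allele lacks, and, per the design text, embryos were not sexed.

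Macrophages settle in the mouse kidney while it forms, first from yolk sac progenitors and later from fetal liver monocytes. They depend on the receptor Csf1r for survival and on the transcription factor PU.1, encoded by Spi1, for their identity. They engulf dying cells, bind debris and immune complexes through scavenger, complement and Fc receptors, and digest what they take up in lysosomes. Foxd1 is a forkhead transcription factor of the renal stromal progenitors, and macrophages are not descended from that lineage.

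Levels are log2 signals of the array as deposited. A difference is null-labelled minus wild type, taken between group means in log2 units, with the standard error (SE) of the limma fit over all genes. A gene is said to have risen or fallen where its Benjamini-Hochberg adjusted p-value across all 19938 genes was under 0.05. The Foxd1 row did not bear out the genotypes as labelled. Pools 1, 2 and 3 read 10.05, 9.77 and 9.71 under the null label and 9.40, 9.55 and 9.69 under the wild type label. Every null-labelled pool was thus above every wild type pool, by a gap of 0.02. The difference was 0.295 (SE 0.109, unadjusted p = 0.0222 and adjusted p = 0.246 by limma). Whether its probes lie outside the deleted part is not given, so every direction is between pools as labelled. Kidney identity was plain in both groups: Pax2, a transcription factor of the kidney epithelium and its progenitors, read 9.44 to 9.58 in the null-labelled and 9.64 to 9.80 in the wild type pools. Every null-labelled pool was thus below every wild type pool for Pax2.

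Of the 34 macrophage and myeloid genes, 6 rose in the null-labelled pools, 0 fell and 28 did not pass the threshold. Over all genes 1.64% rose and 0.767% fell. At an unadjusted p under 0.05 in the same limma fit, 18 members were higher and 1 lower, against 8.68% and 5.42% of all genes. The 6 that rose were Ms4a7, Ctss, Mrc1, Tyrobp, Mpeg1 and Ptprc, which together span a membrane protein, a lysosomal protease, an endocytic receptor, a signalling adaptor, a pore-forming protein and the common leucocyte phosphatase. The median difference of the 34 was 0.27, against 0.01 over all genes, and 31 of the 34 differences lay above 0, against 54.5% of all genes. In 14 members every null-labelled pool stood above every wild type pool, against 11.5% of all genes. The members were chosen with earlier results of these data known, so the shares over all genes give scale and are not a test. In bulk tissue, more cells of a type and more RNA of these genes per cell cannot be told apart.

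**Figure D1:**
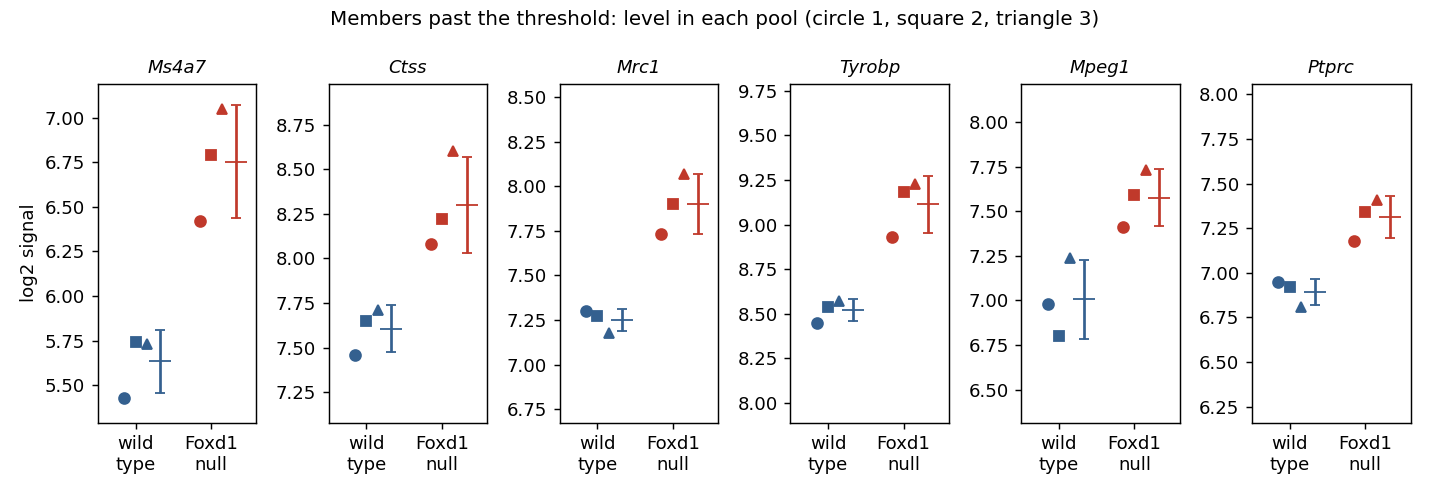
Level of the 6 members that rose, as log2 signal on the vertical axis, in each pool (circle, pool 1; square, pool 2; triangle, pool 3; blue, wild type; red, null-labelled), with the mean and SD of the 3 pools beside the points. All panels span the same number of log2 units; in each panel the 3 null-labelled pools lie above the 3 wild type pools, with the widest gap for Ms4a7 (0.67).

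Ms4a7, a four-pass membrane protein of mature macrophages, had the largest difference of the 34. Its level in pools 1, 2 and 3 was 6.42, 6.79 and 7.05 with the null label against 5.43, 5.74 and 5.73 with the wild type label; later values keep this order. The lowest null-labelled pool, pool 1, was thus still clear of every wild type pool. The rise was 1.12 (SE 0.15, 2.17-fold, n = 3 per group, adjusted p = 0.00492 by limma). Mrc1, the mannose receptor of tissue macrophages, which lymphatic endothelium also makes, read 7.73, 7.90 and 8.07 against 7.30, 7.27 and 7.18 in the wild type pools. Here the wild type pools lay close together (SD 0.07) and the null-labelled pools stood above all of them. Mrc1 rose by 0.65 (SE 0.10, 1.57-fold, adjusted p = 0.00749).

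Tyrobp encodes DAP12, the adaptor that carries the signals of Trem2 and other myeloid receptors into the cell. It read 8.93, 9.18 and 9.23 in the null-labelled and 8.45, 8.54 and 8.57 in the wild type pools, again without overlap, and rose by 0.59 (SE 0.09, 1.51-fold, adjusted p = 0.00969). Ctss is cathepsin S, a lysosomal cysteine protease of antigen-presenting cells. Its levels were 8.08, 8.22 and 8.60 in the null-labelled and 7.46, 7.65 and 7.71 in the wild type pools. Null-labelled pool 3 stood highest, and the gene rose by 0.69 (SE 0.13, 1.62-fold, adjusted p = 0.0252).

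Mpeg1 encodes perforin-2, a pore-forming protein that macrophages direct at engulfed bacteria. It read 7.41, 7.59 and 7.73 in the null-labelled and 6.98, 6.80 and 7.24 in the wild type pools, with wild type pool 3 nearest the other group, and rose by 0.57 (SE 0.12, 1.49-fold, adjusted p = 0.043). Ptprc encodes CD45, the tyrosine phosphatase found on nearly all white blood cells. Its levels of 7.18, 7.34 and 7.41 against 6.95, 6.92 and 6.81 did not overlap, and it rose by 0.42 (SE 0.08, 1.34-fold, adjusted p = 0.0326).

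Ms4a7 and Mrc1 passed in all 6 fits that left out 1 pool, Tyrobp in 4, Ctss and Mpeg1 in 2 each and Ptprc in 1. The number of members that rose was 13, 2 and 4 when null-labelled pool 1, 2 or 3 was left out, and 2, 3 and 5 when wild type pool 1, 2 or 3 was. Over all genes the same fits gave 572, 127 and 182, and 130, 140 and 207, risen genes, against 326 with all pools. For Ptprc, the single such fit with a call was that leaving out null-labelled pool 1 (0.48, adjusted p = 0.014). The same held for Fcer1g (0.40), Laptm5 (0.43), C1qb (0.66), C1qc (0.43), Lyve1 (0.47), Lyz2 (1.04) and Cybb (0.65). Unlike Ptprc, they had no call with all pools in the fit defined above. Without null-labelled pool 1 their adjusted p ran from 0.00689 for Lyz2 to 0.0442 for C1qc. Lyz2 and C1qb also passed with all pools under other limma settings. Their adjusted p was 0.0292 and 0.0366 with array weights, and 0.00327 and 0.0243 with a block for the replicate number. When all 35556 rows of the array entered the limma fit, 0 of the 34 passed. There the 6 genes that rose had adjusted p from 0.0724 to 0.191. At an unadjusted p under 0.05 in that fit 14 members were higher and 0 lower, and the matching share of all rows was not counted.

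The windows around the transcription starts of the members that rose are shown as the regulatory sequence of the genes with calls; PU.1, the factor of macrophage identity, binds purine-rich sites with GAGGAA at their heart. RefSeq start-site windows (GRCm38.p6, 250 bases before to 50 after the start) were held for 26 of the 34 members, 5 of them among the 6 that rose; Tyrobp was not matched. Each is printed 5′ to 3′ on the gene's strand, using the window farthest upstream where a gene had more than 1, with GAGGAA or its complement TTCCTC in capitals.
Ctss, chr3:95526536-95526835, plus strand: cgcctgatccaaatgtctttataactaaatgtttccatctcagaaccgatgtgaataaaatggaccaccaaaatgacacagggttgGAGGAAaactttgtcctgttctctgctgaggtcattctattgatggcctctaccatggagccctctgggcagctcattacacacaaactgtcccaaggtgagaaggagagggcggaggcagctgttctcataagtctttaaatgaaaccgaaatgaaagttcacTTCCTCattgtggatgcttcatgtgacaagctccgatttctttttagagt
Mrc1, chr2:14229164-14229463, plus strand: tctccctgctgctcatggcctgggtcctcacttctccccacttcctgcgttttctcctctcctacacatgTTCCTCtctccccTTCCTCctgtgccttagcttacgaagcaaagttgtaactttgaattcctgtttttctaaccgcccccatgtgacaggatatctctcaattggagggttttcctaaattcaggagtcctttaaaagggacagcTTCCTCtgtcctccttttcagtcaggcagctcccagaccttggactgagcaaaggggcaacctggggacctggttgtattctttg
Ptprc, chr1:138175256-138175555, minus strand: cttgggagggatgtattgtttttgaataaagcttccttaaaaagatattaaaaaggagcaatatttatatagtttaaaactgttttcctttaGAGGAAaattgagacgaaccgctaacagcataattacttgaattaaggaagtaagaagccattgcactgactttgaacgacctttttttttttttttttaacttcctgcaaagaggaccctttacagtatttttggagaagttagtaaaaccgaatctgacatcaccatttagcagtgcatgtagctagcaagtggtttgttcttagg
Ms4a7, chr19:11336097-11336396, minus strand: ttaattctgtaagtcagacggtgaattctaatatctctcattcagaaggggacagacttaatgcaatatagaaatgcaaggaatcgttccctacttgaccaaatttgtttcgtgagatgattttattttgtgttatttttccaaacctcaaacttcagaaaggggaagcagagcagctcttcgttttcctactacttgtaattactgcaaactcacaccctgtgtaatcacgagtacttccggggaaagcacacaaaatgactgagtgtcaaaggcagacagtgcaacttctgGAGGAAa
Mpeg1, chr19:12460520-12460819, plus strand: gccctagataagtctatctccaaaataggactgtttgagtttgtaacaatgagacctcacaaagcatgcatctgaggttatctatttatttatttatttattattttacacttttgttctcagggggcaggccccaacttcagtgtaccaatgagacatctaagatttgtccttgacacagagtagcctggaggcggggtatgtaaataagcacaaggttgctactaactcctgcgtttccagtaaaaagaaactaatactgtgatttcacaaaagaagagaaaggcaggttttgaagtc

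Mrc1 held 3 matches to GAGGAA, Ctss 2, Ptprc and Ms4a7 1 each and Mpeg1 0. In Mrc1 the match nearest the start began at position -35, and in Ctss a match lay at the start itself. Counting either strand and any window of a gene, GAGGAA stood in 17 of the 26 members (65.4%) and in 31.3% of all 27018 genes with a window. Among the members it stood in 4 of the 5 that rose and in 13 of the 21 that did not pass. The longer GAGGAAG, which contains it, stood in 10 of 26 members and 15.4% of all genes. Of the other motifs searched, GGAA and GAAA 2 bases apart (an element read by Ets and IRF factors together) stood in 3 of 26 members (Folr2, Cd68 and Cybb) and 3.16% of all genes. TGAGTCA, an AP-1 site, stood in 2 of 26 and 5.95%, and TATAAA in 4 of 26 and 15.7%. These are matches of letters only, and no binding was measured.

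**Figure D2:**
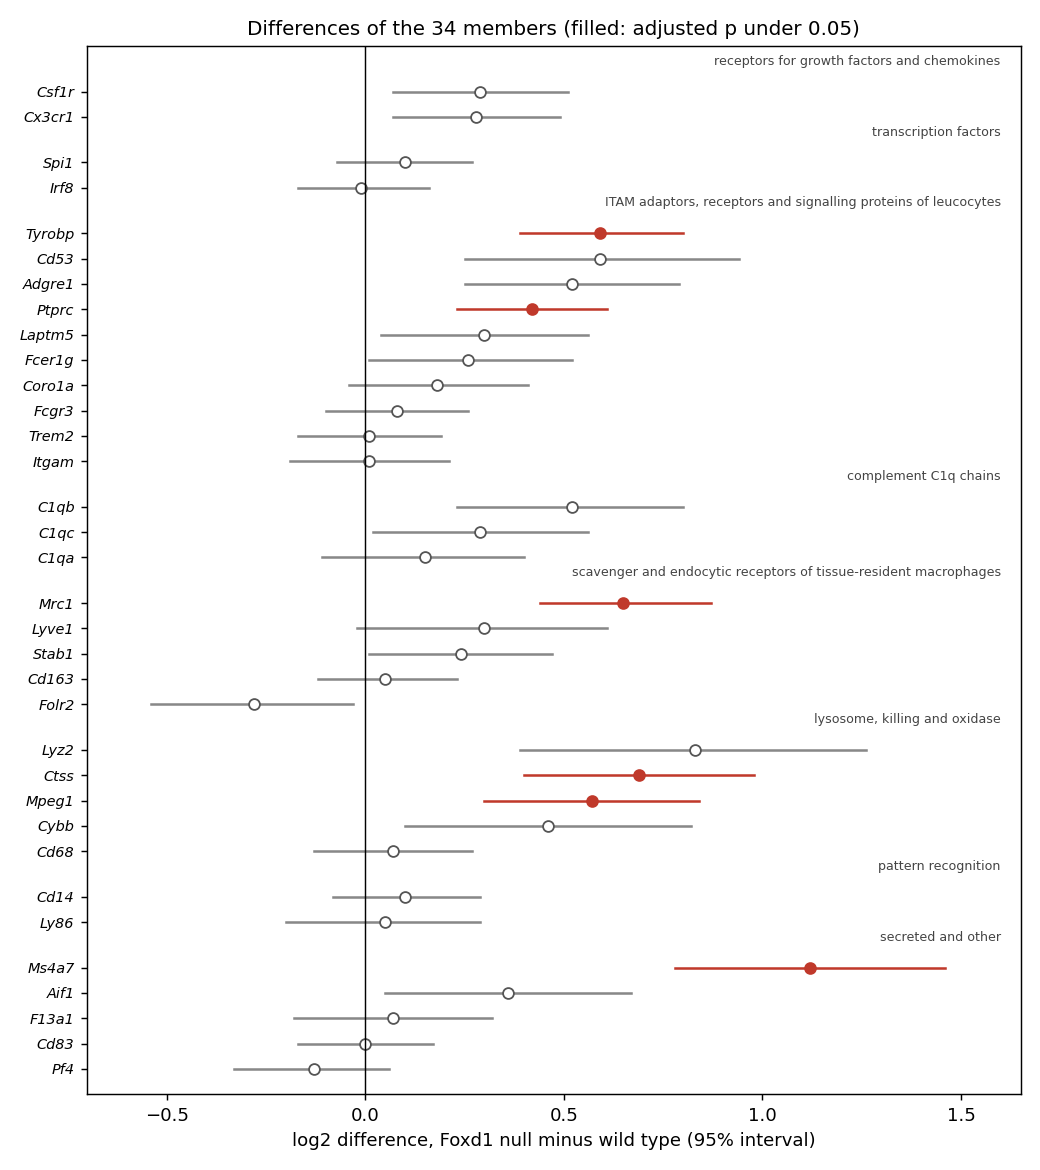
Difference of each of the 34 members in log2 units (null-labelled minus wild type, horizontal axis) with its 95% interval, grouped by role; filled red points passed the threshold. The estimates run from -0.28 for Folr2 to 1.12 for Ms4a7.

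Neither of the receptors that place and sustain macrophages passed. Csf1r, the receptor for the growth factors Csf1 and Il34, read 6.59, 6.78 and 6.95 in the null-labelled and 6.41, 6.52 and 6.51 in the wild type pools, a difference of 0.29 (SE 0.10, 95% interval 0.07 to 0.51, adjusted p = 0.198). Cx3cr1, the receptor of fractalkine, read 7.89, 8.12 and 7.91 against 7.55, 7.74 and 7.79, a difference of 0.28 (SE 0.09, adjusted p = 0.199). In both genes every null-labelled pool stood above every wild type pool, by gaps of 0.07 and 0.10. The lineage transcription factors showed smaller differences. Spi1 read 5.92, 5.93 and 6.02 against 5.78, 5.89 and 5.91 (difference 0.10, interval -0.07 to 0.27, adjusted p = 0.63). Irf8, which directs monocyte and dendritic cell fate, read 6.59, 6.66 and 6.54 against 6.56, 6.60 and 6.65 (difference -0.01, interval -0.17 to 0.16, adjusted p = 0.987), and its groups overlapped.

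Among 10 signalling, adhesion and surface proteins of leucocytes, Tyrobp and Ptprc rose, 8 did not pass, and the median difference was 0.28. Cd53, a tetraspanin of white blood cells, read 7.39, 7.40 and 7.79 in the null-labelled and 6.63, 6.93 and 7.22 in the wild type pools. The groups did not overlap, but the wild type pools differed among themselves (SD 0.29), and the difference of 0.59 (SE 0.15) had an adjusted p of 0.0887. Adgre1, an adhesion receptor widely used to mark mouse macrophages, read 6.99, 6.85 and 7.35 against 6.55, 6.62 and 6.46. Its difference was 0.52 (SE 0.12, interval 0.25 to 0.79, adjusted p = 0.0615), without overlap between the groups.

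The other members of this group were closer to 0. Laptm5, a lysosomal membrane protein of blood cells, differed by 0.30 (SE 0.11, adjusted p = 0.263), and Fcer1g, the Fc receptor gamma chain that like Tyrobp carries an activation motif, by 0.26 (SE 0.11, adjusted p = 0.338). Fcer1g was 6.35, 6.79 and 6.76 in the null-labelled pools and 6.31, 6.39 and 6.42 in the wild type pools, with null-labelled pool 1 inside the wild type range. Coro1a, an actin-binding protein of leucocytes, differed by 0.18 (adjusted p = 0.46) and Fcgr3, a low-affinity IgG receptor whose row may also bind RNA of related Fc receptors, by 0.08 (adjusted p = 0.731). Trem2, the lipid-sensing receptor that signals through Tyrobp, read 7.26, 7.40 and 7.34 against 7.38, 7.38 and 7.21. Its groups overlapped and the difference was 0.01 (interval -0.17 to 0.19, adjusted p = 0.969). Itgam, the integrin chain CD11b, also differed by 0.01 (interval -0.19 to 0.21, adjusted p = 0.979).

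The 3 chains of C1q, the recognition molecule of the classical complement pathway that macrophages secrete, did not pass. C1qb read 6.78, 7.13 and 7.27 in the null-labelled and 6.45, 6.48 and 6.71 in the wild type pools. Every null-labelled pool exceeded the wild type pools, with a difference of 0.52 (SE 0.13, interval 0.23 to 0.80, adjusted p = 0.0763). C1qc read 6.60, 6.96 and 7.05 against 6.53, 6.50 and 6.72 (difference 0.29, SE 0.12, adjusted p = 0.311), and C1qa 6.81, 6.77 and 7.15 against 6.64, 6.76 and 6.90 (difference 0.15, SE 0.11, adjusted p = 0.638). In both of these, wild type pool 3 stood above at least 1 null-labelled pool.

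Of the 5 scavenger and endocytic receptors of resident macrophages, Mrc1 alone rose, and the remaining 4 went different ways. Lyve1, a hyaluronan receptor of a subset of macrophages and of lymphatic endothelium, read 7.42, 8.04 and 7.83 in the null-labelled and 7.36, 7.58 and 7.47 in the wild type pools. Null-labelled pool 1 lay inside the wild type range, and the difference was 0.30 (SE 0.14, interval -0.02 to 0.61, adjusted p = 0.388). Without null-labelled pool 1 it was 0.47 (adjusted p = 0.0392) and without pool 2 it was 0.16 (adjusted p = 0.661). Lyve1 was the only member in the authors' deposited table, which gives it a signed fold of -1.05 with a p-value of 0.165, the opposite sign from the deposited log2 values. Stab1, a clearance receptor of macrophages and sinusoidal endothelium, read 7.34, 7.53 and 7.75 against 7.29, 7.35 and 7.26 (difference 0.24, SE 0.10, adjusted p = 0.316). Cd163, the receptor for haemoglobin bound to haptoglobin, differed by 0.05 (interval -0.12 to 0.23, adjusted p = 0.827).

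Folr2, a folate receptor of resident macrophages, had the lowest difference of the 34. It read 6.55, 6.74 and 6.94 in the null-labelled and 6.85, 7.17 and 7.06 in the wild type pools, so that only null-labelled pool 3 reached the wild type range. The difference was -0.28 (SE 0.12, interval -0.54 to -0.03, adjusted p = 0.292).

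Among 5 genes for digestion and killing, Ctss and Mpeg1 rose, 3 did not pass, and the median difference of 0.57 was the highest of any role with at least 3 members. Lyz2, the macrophage lysozyme, read 6.53, 7.04 and 7.33 in the null-labelled and 5.89, 6.12 and 6.43 in the wild type pools. Its difference of 0.83 was second in size to that of Ms4a7, without overlap, but the pools of each group were spread widely (SD 0.41 and 0.27) and the adjusted p was 0.0639 (SE 0.19). The row may also bind RNA of the near-identical Lyz1. Cybb, the membrane subunit of the phagocyte oxidase, read 6.37, 6.73 and 7.15 against 6.30, 6.25 and 6.31 (difference 0.46, SE 0.16, adjusted p = 0.22). Its wild type pools were nearly equal, while null-labelled pool 1 was only just above them. Without that pool the difference was 0.65 (adjusted p = 0.0196) and without null-labelled pool 3 it was 0.26 (adjusted p = 0.399). Cd68, a lysosomal glycoprotein used to stain macrophages, read 8.01, 7.98 and 8.11 against 7.86, 7.91 and 8.12 (difference 0.07, interval -0.13 to 0.27, adjusted p = 0.795).

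The pattern recognition genes Cd14, a co-receptor for lipopolysaccharide, and Ly86, a partner of the receptor Cd180, differed by 0.10 (interval -0.08 to 0.29, adjusted p = 0.654) and 0.05 (interval -0.20 to 0.29, adjusted p = 0.906). Of the secreted and remaining genes Ms4a7 rose and 4 did not pass. Aif1, the calcium-binding protein Iba1, read 6.92, 7.20 and 7.37 in the null-labelled and 6.57, 6.81 and 7.04 in the wild type pools. The groups overlapped through wild type pool 3, and the difference was 0.36 (SE 0.14, adjusted p = 0.275). F13a1, the coagulation factor XIII chain made by resident macrophages, differed by 0.07 (adjusted p = 0.854), Cd83, a surface protein of activated antigen-presenting cells, by 0.00 (interval -0.17 to 0.17, adjusted p = 0.997) and Pf4, a chemokine of platelets and fetal macrophages, by -0.13 (interval -0.33 to 0.06, adjusted p = 0.569).

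**Figure D3:**
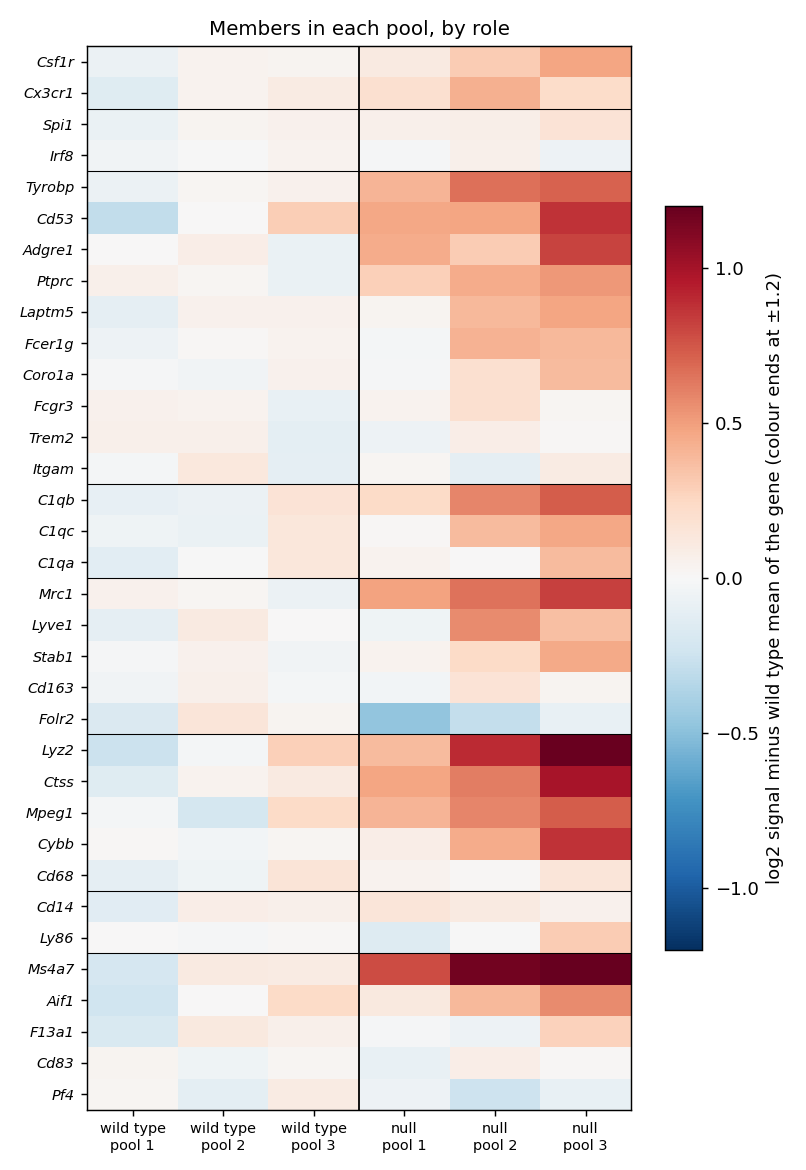
Each of the 34 members (rows, by role) in each pool (columns), as log2 signal minus the wild type mean of that gene. Null-labelled pool 3 is the highest of its group in 24 members and null-labelled pool 1 the lowest in 25.

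The null-labelled pools were unequal. Over all rows of the array, null-labelled pool 1 correlated slightly better with the wild type pools (mean 0.9906) than with its own group (mean 0.9896). No other pool did so, and the reason was not tested. The median over members of the level minus the gene's wild type mean was 0.05 in null-labelled pool 1, 0.30 in pool 2 and 0.39 in pool 3. The wild type values were -0.07, 0.02 and 0.05. The same median over all genes lay between -0.01 and 0.05 in every pool. Null-labelled pool 1 exceeded all wild type pools in 15 members, pool 2 in 27 and pool 3 in 24. Wild type pool 1 was the lowest of its group in 20 members. The summed linear signal of the 34 was 4657, 5299 and 5795 under the null label against 3975, 4211 and 4364 under the wild type label, so that the groups did not overlap. In all, 20 of the 34 rows had a mean below 7.006, the median of all rows of the array, among them Ms4a7.

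The ligands and partners of the members were read from separate lists. Of 19 ligands and receptors for growth, survival and migration 2 rose, and the list median was 0.10. C3ar1, the receptor of the complement fragment C3a on myeloid cells, read 8.21, 8.24 and 8.63 in the null-labelled and 7.37, 7.23 and 7.50 in the wild type pools. This difference was of the order of that of Ms4a7, without overlap (0.99, SE 0.12, adjusted p = 0.00294). Cxcl12, a chemokine of stroma and endothelium, rose by 0.59 (SE 0.12, adjusted p = 0.0366). The Csf1r ligands Csf1 and Il34, named after their values were seen, differed by 0.07 (adjusted p = 0.788) and 0.02 (adjusted p = 0.957), and the Cx3cr1 ligand Cx3cl1, also so named, by -0.03 (adjusted p = 0.907).

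Of 17 further myeloid transcription factors 1 rose, Zeb2, which mesenchymal cells also express (0.51, SE 0.07, adjusted p = 0.00563), and the list median was 0.03. Of 24 genes of activation-motif signalling, Fc receptors and the leucocyte cytoskeleton 1 rose, the actin bundler Lcp1 (0.47, SE 0.10, adjusted p = 0.0399), with a median of 0.08. Of 25 lysosome and engulfment genes 1 rose, the cholesterol exporter Abca1 (0.79, SE 0.09, adjusted p = 0.00214), with a median of 0.15 and 22 differences above 0. Of 19 further scavenger and lectin receptors 2 rose, the fatty acid receptor Cd36 (0.81, SE 0.17) and the collectin Colec12 (0.46, SE 0.08), both of which endothelial or stromal cells also make. Of 12 complement genes 1 rose, Cd55, a brake on complement at the cell surface (0.66, SE 0.13, adjusted p = 0.0287). At an unadjusted p under 0.05 in limma, 4, 6, 10, 6 and 4 genes of these lists were higher, in the order given. Lower were 1, 1, 0, 0 and 0, where 8.68% of all genes were higher and 5.42% lower. The lower transcription factor was Myb, named after its value was seen (-0.33, SE 0.09, adjusted p = 0.0869, without overlap).

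The lists nearest to activation of these cells held no calls. Of 19 genes listed as inflammatory cytokines and chemokines 0 passed in limma. In that list 18 differences lay above 0, against 54.5% of all genes, and the median was 0.09. The growth factor Igf1 was the 1 gene higher at an unadjusted p under 0.05. It had the highest level there and differed by 0.66 (SE 0.16, adjusted p = 0.0738). Vegfa, also a growth factor, was the 1 gene below 0 (-0.08, adjusted p = 0.766). Of 14 Toll-like receptors and partners 0 passed, 1 was higher unadjusted, 11 differences lay above 0 and the median was 0.09. Tlr2 differed by 0.03 and the lipopolysaccharide carrier Lbp by -0.07. Of 4 oxidase partners of Cybb 0 passed, 1 was higher unadjusted, 3 differences lay above 0 and the median was 0.09. Cyba differed by -0.12 and Ncf1 by 0.04. Of the 20 genes that rose in all the other lists, 3 (C3ar1, Zeb2 and Abca1) passed without each pool in turn, and 2 (Zeb2 and Abca1) passed when all rows of the array were fitted.

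**Figure D4:**
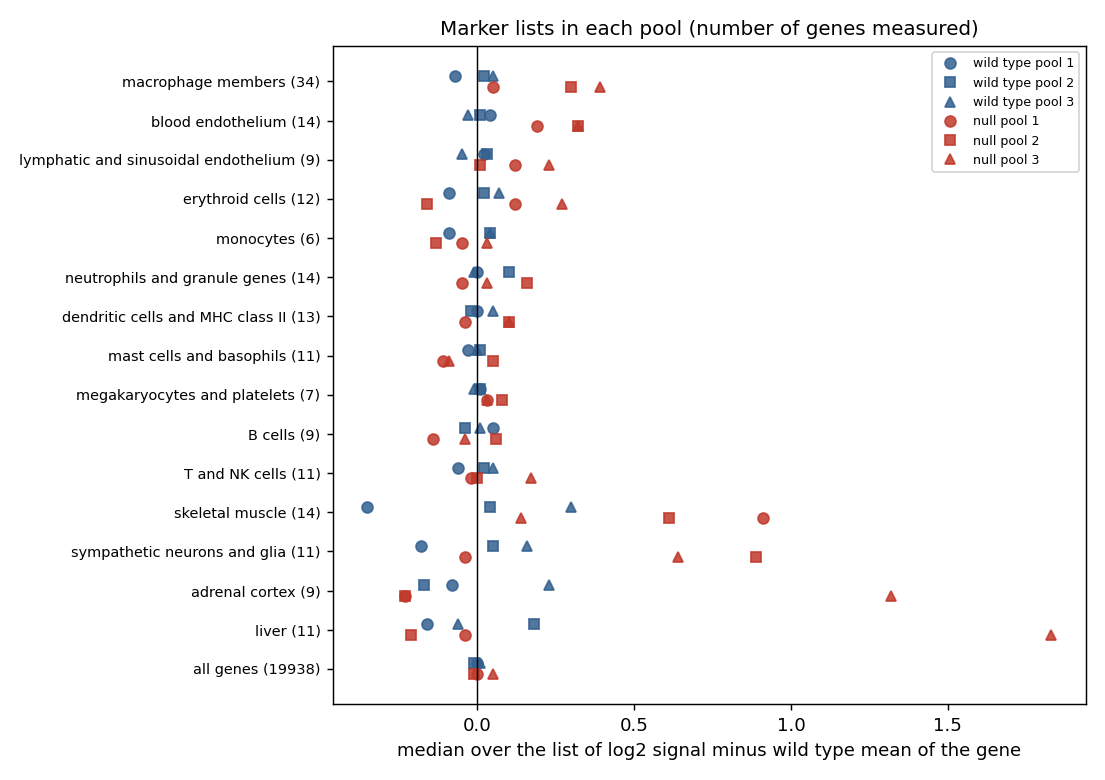
Median over each marker list of the log2 signal minus the gene's wild type mean (horizontal axis), 1 point per pool, red for null-labelled and blue for wild type; the number of genes measured stands beside each list. Blood endothelium is higher in all 3 null-labelled pools (0.19 to 0.32) and the macrophage members in pools 2 and 3 (0.30 and 0.39). Sympathetic neurons and glia are also high in pools 2 and 3 (0.89 and 0.64), skeletal muscle in pools 1 and 2 (0.91 and 0.61), and liver and adrenal cortex in pool 3 (1.83 and 1.32).

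Markers of other blood cells had smaller list medians. These were -0.03 for 6 monocyte genes, 0.06 for 14 neutrophil genes, 0.06 for 13 dendritic cell and MHC class II genes, 0.10 for 11 T and NK cell genes and 0.11 for 12 erythroid genes, and 0 genes of these lists passed in limma. At an unadjusted p under 0.05, 0, 3, 0, 2 and 2 of their genes were higher, and 1 neutrophil gene was lower. Among their genes Plac8 differed by -0.03, S100a9 by 0.58 (SE 0.25, adjusted p = 0.318), Zbtb46 by 0.03, Cd3e by -0.12 and the embryonic globin Hbb-y by 0.09. S100a9 had the highest difference of the neutrophil list, in which 9 of 14 lay above 0. The lowest was that of Ly6g, named after its value was seen (-0.46, SE 0.11, adjusted p = 0.0759, without overlap). In 3 lists 1 gene rose that other cells also make: Gata2 (0.37, SE 0.08) of 11 mast cell genes, Thbs1 (0.45, SE 0.08) of 7 megakaryocyte genes and Ebf1 (0.56, SE 0.10) of 9 B cell genes. The medians of these 3 lists were -0.11, 0.02 and -0.01, and 2, 1 and 1 of their genes were higher and 1, 0 and 0 lower at an unadjusted p under 0.05. Gata2 went against its list, in which 3 of 11 differences lay above 0; the lowest was that of Hdc, the histamine-forming enzyme, named after its value was seen (-0.67, SE 0.15, adjusted p = 0.0521, without overlap).

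Some endothelial markers also rose. Of 14 blood endothelial genes 4 rose (Clec14a by 0.66, Pecam1 by 0.54, Tek by 0.47 and Kdr by 0.47), 13 differences lay above 0 and the median was 0.27, as for the members. At an unadjusted p under 0.05 in limma 9 of the 14 were higher (8.68% of all genes) and 0 lower. In 10 of them every null-labelled pool stood above every wild type pool (11.5% of all genes). The summed signal of that list was 5535 to 6298 in the null-labelled and 4692 to 4842 in the wild type pools. Of 9 genes of lymphatic and sinusoidal endothelium 3 rose: Prox1 by 1.07 (SE 0.23), Mmrn1 by 0.93 (SE 0.15) and Nrp2 by 0.86 (SE 0.17). In this list 5 differences lay above 0, and Reln, named after its value was seen, had the lowest (-0.37, SE 0.14, adjusted p = 0.25). These genes bear on Mrc1, Lyve1 and Stab1, which such endothelium also makes. Mmrn1 read 7.01, 7.63 and 7.56 in the null-labelled and 6.42, 6.64 and 6.33 in the wild type pools. Null-labelled pool 1 was the lowest of its group, as it was in 25 of the 34 members, Mrc1 and Lyve1 among them. The list median was 0.06, and its summed signal was 1673 to 2194 in the null-labelled and 1579 to 1673 in the wild type pools. The lymphatic genes Flt4 and Pdpn and the sinusoidal gene Stab2, named after their values were seen, differed by 0.06, -0.04 and 0.14 and did not pass. The part of endothelium in the differences of Mrc1, Lyve1 and Stab1 was not tested.

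Markers of tissue next to the kidney differed from pool to pool, and their list medians were above that of the members: 0.55 for skeletal muscle, 0.50 for sympathetic neurons and glia, 0.39 for adrenal cortex and 0.38 for liver. The median of the sympathetic list against its wild type mean was -0.04, 0.89 and 0.64 in null-labelled pools 1, 2 and 3, low in pool 1 and high in the other two, as the member median was. The skeletal muscle median was 0.91, 0.61 and 0.14, highest in pool 1. Summed signals of 14 skeletal muscle genes ran from 4049 to 7779 in the null-labelled and 1904 to 4752 in the wild type pools, and those of 11 sympathetic neuron and glia genes from 1689 to 5847 and 1403 to 1862. Tnnt3 (1.09, SE 0.23) and Elavl4 (0.62, SE 0.13) rose in those lists, where 8 of 14 muscle and 7 of 11 sympathetic genes were higher at an unadjusted p under 0.05. Summed signals of 11 liver genes were 1160, 1015 and 6833 under the null label against 1019 to 1545 in the wild type pools. Those of 9 adrenal cortex genes were 835, 783 and 3416 against 817 to 1153, so pool 3 alone stood apart in both. No gene of the liver or adrenal lists passed in limma, where 1 liver and 0 adrenal genes were higher at an unadjusted p under 0.05; Trf of the liver list differed by 0.96 (adjusted p = 0.262) and Mc2r of the adrenal list by 0.08. No row is listed at 0 on the log2 scale, so these lists give levels and not absence. The part of neighbouring tissue in the differences of the members was not tested.

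Null-labelled pool 3 was also the highest pool for most members. Without it the member median was 0.20, and Ms4a7, Mrc1, Tyrobp and Ctss passed while Mpeg1 (0.49, adjusted p = 0.136) and Ptprc (0.37, adjusted p = 0.102) did not.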

How the data were processed

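RNA (50 ng per pool, NuGEN whole-transcript amplification, per the labels' protocols) was hybridised to 6 Affymetrix gene arrays. The deposited values are log2 signals, 1 column per pool, with near-equal medians (6.984 to 7.057); the sources used here name no program. The authors' deposited table of 488 probe sets holds a signed linear fold, a p-value, group medians in natural log (ln) units and an expressed p-value, and was read only for members. Platform annotation gave 1 symbol to 21789 of 35556 rows, several to 1621 and none to 12146. Keeping 1 row per gene left 19938 genes, with no filter on level.

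Groups were compared by limma (version 3.58.1, R 4.3.3; lmFit, then eBayes) with genotype as the single term, two-sided tests and Benjamini-Hochberg adjustment over all genes. Precision is limited by the number of arrays: SE had a median of 0.086 over all genes and 0.106 over members, and 3 against 3 allows no exact two-sided p below 0.1. In a simulation of this comparison (19938 genes), 100 of 100 genes changed 2-fold and 79 of 100 changed 1.5-fold were recovered, with 9 false calls. Its noise was independent between genes and arrays, with variances drawn from limma's fitted prior. It held no shared litters and no differences in tissue content between pools, so recovery in the real pools may differ. Members and lists were chosen with earlier results of these data known. Named were Foxd1, every member and, from each of 23 other lists (302 of 333 genes measured, some in more than 1 list), up to 4 genes past the threshold with the largest difference, or up to 2 with the highest level where none passed; Pax2 was named as a tissue check. Motif lengths were settled after first matches were seen. Over all genes, same-numbered pools deviated together only weakly (correlations 0.125, 0.068 and 0.053), so the numbers were not taken as pairs. The member medians, however, kept the same order of pool numbers in both groups. The replicate block lowered the SE of Lyz2 from 0.19 to 0.08 and of Aif1 from 0.14 to 0.07, and raised that of Ptprc from 0.08 to 0.09. Joins and plots used pandas 2.3.3 and matplotlib 3.10.9 under Python 3.11.15. Alternatives were 3 variance or weight settings, 2 scalings, a filter, all rows, mean rows, the replicate block and leaving out each pool.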

Additional observations from a re-analysis of the deposited data

How the results depend on the processing

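The member count of 6 risen and 0 fallen was recomputed under 15 alternatives; 0 members fell in any of them. All rows of the array in the fit gave 0 risen members, and 71 risen and 37 fallen rows in place of 326 and 153 genes; more rows, and another variance prior, entered that fit. Leaving out 1 pool gave 2 to 13 risen members, and 127 to 572 risen and 64 to 171 fallen genes. Those fits gave member medians of 0.20 to 0.36, and 14 to 21 members without overlap. Smaller groups separate more easily, so these counts without overlap cannot be set against the count with all pools. The matching shares of all genes without overlap were not counted, either for these fits or for the filter on level. The filter at the median of all rows removed 20 members, Ms4a7 among them, and kept 14, of which 7 had groups without overlap and 6 rose: Cd53 gained a call (adjusted p = 0.0477) beside Tyrobp, Ptprc, Mrc1, Ctss and Mpeg1. The replicate block gave 9 risen members (Ptprc did not pass there, adjusted p = 0.0568, and Cd53, C1qb, Lyz2 and Aif1 did) and 381 risen and 158 fallen genes; every pool correlated best with its own number, a hint from the data and not from the design. The other 6 alternatives gave 5 to 8. Quantile normalization and median centring moved the median of all genes from 0.013 to -0.012 and -0.018, left 28 of 34 differences above 0 and gave 267 risen and 174 fallen, and 295 and 185, genes. Of 490 single-member values, 426 kept direction and side of the threshold, 23 lost the call, 19 gained one and 22 changed sign. The sign changes were all in members that did not pass. Trem2 was -0.02 with both scalings, -0.00 with array weights and from -0.04 to 0.05 with 1 pool left out. Itgam was -0.02 with both scalings and with array weights, and from -0.05 to 0.07 with 1 pool left out. Cd83 was -0.03 with both scalings and from -0.04 to 0.04 with 1 pool left out. Irf8 was 0.01 with array weights. With 1 pool left out Irf8 ran from -0.04 to 0.02, Ly86 from -0.08 to 0.15 and F13a1 from -0.04 to 0.13. The cause of these changes was not tested. Signal over background could not be judged, since no detection call was used.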
